A study of Oryza sativa with 14 samples.

Results

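The DREB1/CBF genes of rice encode AP2-domain transcription factors, and 4 of them were followed here across 7 groups of seedlings: DREB1B (LOC4347618), DREB1G (LOC4330306), DREB1E (LOC4336721) and CBF3 (LOC4347620, also named DREB1A). They were chosen by name, as the rice family of the BCBF1 transgene carried by one of the lines. Earlier results of these data were known at that choice, so the count of members called is no test of the family. The members are 4 of the 17905 genes that the array annotation links to a probe set. Each has a single probe set, so no choice between probe sets was needed. The reference gene table names 9 DREB1 genes, of which 5 have a probe set assigned. The fifth is DREB1C (LOC4339974), described below with the DREB2 genes, and DREB1F, DREB1H, DREB1I and DREB1J have none in the annotation used here.

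The arrays, Affymetrix Rice Genome GeneChips, held RNA of 14 pools of 6 seedlings, 2 pools (replicates) per group, all Oryza sativa ssp. japonica aged 12 days and grown at 28 °C. All seedlings had 2 days in the dark and 10 days in the light with a 12 h photoperiod. The unstable transgenic line (cv. Nipponbare, T1 generation after Agrobacterium transformation) holds 1 copy of BCBF1 behind the AtRD29A promoter, which is stress-inducible in Arabidopsis, and 1 copy of hpt II. The unstable mutant (cv. Nipponbare, M1 generation) was irradiated with 100 Gy of gamma rays, and both lines are set against the Nipponbare control. The stable mutant, of cv. Estrela A, is a semidwarf line 45 cm shorter than its wild type, derived by gamma irradiation and over 10 generations of selfing, and has the Estrela A control. The stable transgenic line, a T3 generation of cv. Bengal, carries a gene for the single-chain antibody ScFvT84.66 and has the Bengal control. Each modified group is a single line, the M1 line having been picked for looking like its control, and control, irradiated and transformed Nipponbare seed came from the same selfed panicle. Seed of both transgenic lines germinated with 30 mg/L hygromycin B and that of the other 5 groups without it, so within either transgenic comparison the antibiotic and the transgene cannot be told apart. All plants grew at the same temperature, and the labels name no cold treatment.

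DREB1/CBF factors bind the CRT/DRE element in promoters and switch on genes that protect cells during cold and drought. In unstressed plants their transcripts are scarce, and cold raises them within hours through calcium signalling, MAP kinases and bHLH factors of the ICE type. This chain, and its gating by the circadian clock, are best known from Arabidopsis. In rice, CBF3 (DREB1A) and DREB1B are known as cold-induced genes, and overexpression of family members is known to raise tolerance to cold, drought or salt.

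Levels are log2 expression values, on which 1 unit is a doubling. They were summarised by the authors with Robust Multichip Average and are given for single arrays in the order replicate 1, replicate 2. Replicate arrays correlated with r between 0.993 and 0.997 over all probe sets, and the median over all values was 5.86. In pooled seedlings, fewer cells of a type and less RNA per cell cannot be told apart. Values near or below 5 lie in the lower part of the array's range, and no detection calls were used here. The probe sequences were not analysed here, so hybridisation of BCBF1 mRNA to these rice probe sets was not tested.

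DREB1G read 10.48 and 8.52 in the unstable transgenic pools, 4.34 and 4.61 in the unstable mutant, and 4.14 and 4.8 in the Nipponbare control. The other 4 groups lay between 4.39 and 5.17, with 4.5 and 4.76 in the stable mutant, 4.39 and 4.41 in the Estrela A control, 5.17 and 4.68 in the stable transgenic line, and 4.48 and 4.66 in the Bengal control. The lower of the 2 unstable transgenic arrays, at 8.52, stood far above the highest of the 12 other arrays, at 5.17. Among the 6 other groups the order of the means ran from the stable transgenic line at 4.925 ± 0.346 (SD, n = 2) to the Estrela A control at 4.40 ± 0.014, and no neighbours in it differed beyond the spread between arrays.

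DREB1B read 11.02 and 8.30 in the unstable transgenic pools, 5.90 and 5.88 in the unstable mutant, and 6.27 and 6.13 in the Nipponbare control. It read 6.10 and 7.53 in the stable mutant, 6.02 and 5.88 in the Estrela A control, 6.09 and 5.77 in the stable transgenic line, and 6.04 and 5.96 in the Bengal control. Outside these 2 modified lines, the unstable transgenic and the stable mutant, all arrays lay between 5.77 and 6.27. Replicate 2 of the stable mutant, at 7.53, was the highest array outside the unstable transgenic line and the nearest to its lower array. The order of the means below the unstable transgenic line (9.66 ± 1.923) was the stable mutant (6.815 ± 1.011), the Nipponbare, Bengal and Estrela A controls, the stable transgenic line and the unstable mutant (5.89 ± 0.014), and the last 5 lay within 5.89 and 6.20.

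CBF3 read 11.06 and 9.41 in the unstable transgenic pools, 7.32 and 7.67 in the unstable mutant, and 8.15 and 8.51 in the Nipponbare control. Outside cv. Nipponbare it was lower, with 5.99 and 6.68 in the stable mutant, 5.92 and 5.93 in the Estrela A control, 5.33 and 5.84 in the stable transgenic line, and 6.09 and 5.73 in the Bengal control. The order of the means was the unstable transgenic line (10.235 ± 1.167), the unmodified Nipponbare control (8.33 ± 0.255), the unstable mutant (7.495 ± 0.247), the stable mutant (6.335 ± 0.488), the Estrela A control (5.925 ± 0.007), the Bengal control (5.91 ± 0.255) and the stable transgenic line (5.585 ± 0.361), each as SD with n = 2. The arrays of the first 4 groups did not overlap with those of the next group in that order, while those of the last 3 did, and the stable mutant lay within its spread of the Estrela A control. The share of all probe sets separated in this way was not counted, so this order is a description only.

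DREB1E read 7.47 and 5.84 in the unstable transgenic pools, 5.10 and 4.73 in the unstable mutant, and 4.91 and 5.01 in the Nipponbare control. It read 4.92 and 5.08 in the stable mutant, 4.90 and 4.71 in the Estrela A control, 5.03 and 4.98 in the stable transgenic line, and 5 and 4.87 in the Bengal control. The 12 arrays outside the unstable transgenic line lay between 4.71 and 5.10, and the line's lower array was 5.84, which is close to the median of all values. The means of those 6 groups ran from 4.805 ± 0.134 in the Estrela A control to 5.005 ± 0.035 in the stable transgenic line, and neighbours in their order did not differ beyond the spread.

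**Figure D1:**
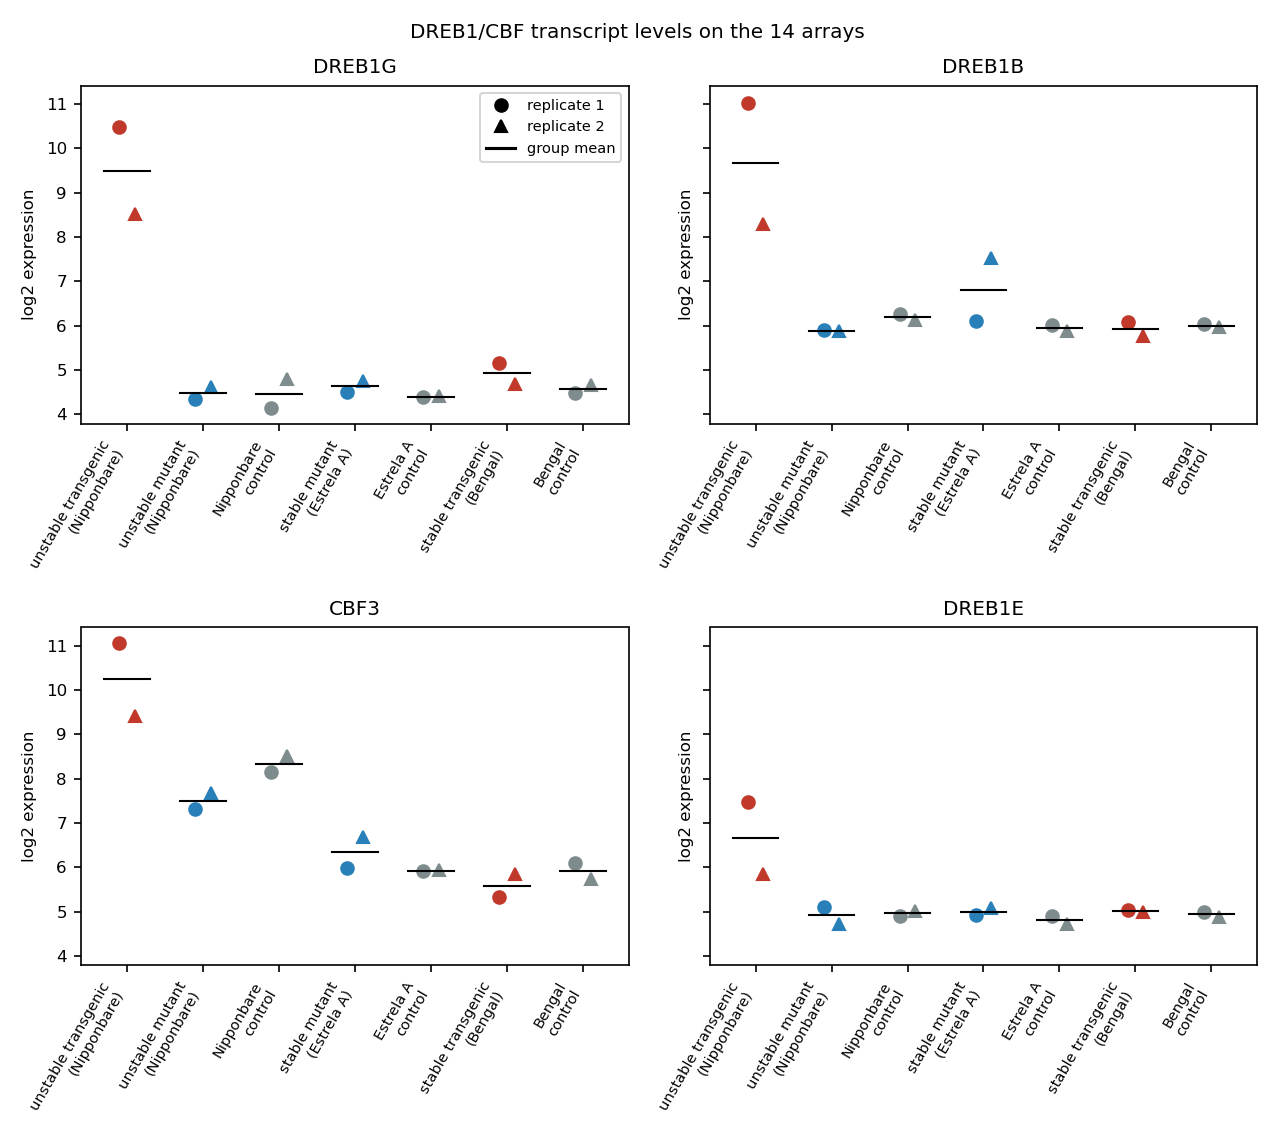
Log2 expression of DREB1G, DREB1B, CBF3 and DREB1E (vertical axis) in the 7 groups (horizontal axis), with replicate 1 as a circle, replicate 2 as a triangle and the group mean as a bar. Both unstable transgenic arrays are the highest in each panel, CBF3 is also raised in the other Nipponbare groups, and replicate 2 of the stable mutant stands out for DREB1B at 7.53.

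All 4 genes rose in the unstable transgenic line against the Nipponbare control, a comparison in which 4.64% of the 57194 probe sets tested were called higher and 7.74% were called in either direction. DREB1C, the fifth DREB1 gene with a probe set and not among the members, was not called in it (log2 difference -0.305). DREB1G rose 32.7-fold on the summarised scale, in 7th place among the 17905 genes by size of rise. Its control readings of 4.14 and 4.8 are low and their signal over background was not tested, so this fold and place are not exact. DREB1B rose 11.0-fold, in 18th place. CBF3 rose 3.75-fold, in 138th place, and DREB1E rose 3.24-fold, in 182nd place. The log2 differences were 5.03 for DREB1G (SE 0.457, limma adjusted p = 0.000145), 3.46 for DREB1B (SE 0.649, adjusted p = 0.00866), 1.905 for CBF3 (SE 0.415, adjusted p = 0.018) and 1.695 for DREB1E (SE 0.362, adjusted p = 0.0164). Both arrays of the line stood above all 12 other arrays for each of the 4 genes, an ordering found for 6.98% of all probe sets tested and 14.5% of genes. Counted over genes, 1649 of 17905 were called higher in this comparison.

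These calls rest on a spread estimated over all 7 groups. With the 4 arrays of the comparison fitted alone none of the 4 genes passed in limma (adjusted p between 0.081 and 0.219), and without variance moderation DREB1G alone passed. Without Nipponbare control replicate 1, CBF3 (adjusted p = 0.106) and DREB1E (0.0837) lost their calls, and CBF3 also did without replicate 1 of the line (0.0964).

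The unstable mutant, of the same cultivar, gives a second set against which the line can be read. All 4 genes were called higher in the line than in the mutant, where 13.7% of probe sets were called higher and 29.4% in either direction. The log2 differences were 5.025 for DREB1G (SE 0.457, adjusted p = 1.1e-05), 3.77 for DREB1B (SE 0.649, adjusted p = 0.00086), 2.74 for CBF3 (SE 0.415, adjusted p = 0.000359) and 1.74 for DREB1E (SE 0.362, adjusted p = 0.00304). Each of the 4 calls held with the 4 arrays of this comparison alone, without variance moderation and with any of the 4 arrays left out.

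**Figure D2:**
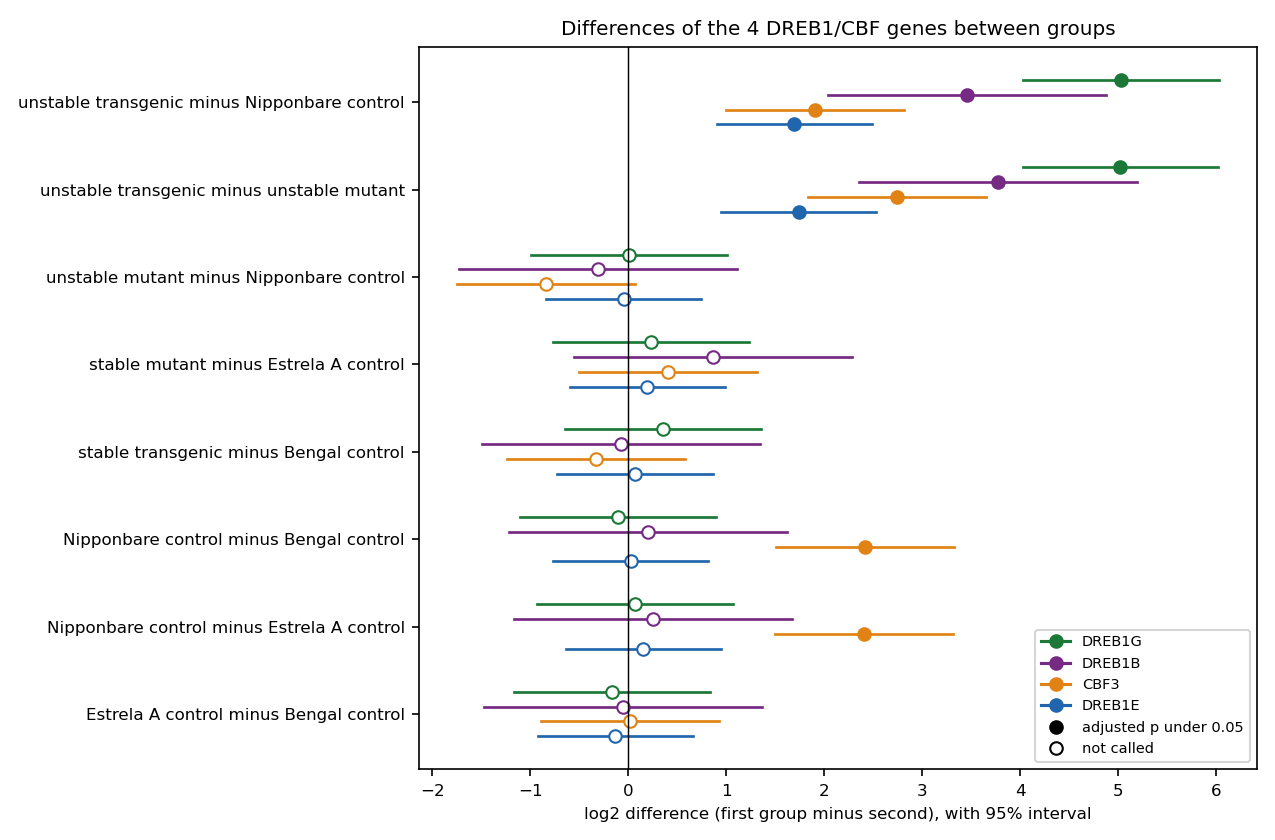
Log2 differences of the 4 genes (horizontal axis, first group minus second) for 8 comparisons of groups (vertical axis), with 95% intervals from the moderated fit and filled circles where the adjusted p was under 0.05. The calls are the 8 in the unstable transgenic comparisons and CBF3 in both comparisons of the Nipponbare control with another cultivar, where its difference was 2.42 or 2.405.

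The 2 pools of the unstable transgenic line differed in the size of the rise. All 4 genes read higher on replicate 1, by 2.72 log2 units for DREB1B, 1.96 for DREB1G, 1.65 for CBF3 and 1.63 for DREB1E. A gap of at least 1.63 in that direction was found for 107 of 57194 probe sets, or 0.187%. Among the 361 probe sets called higher by at least 1.5 log2 units in this line the share was 19.1%, and 90.6% of them read higher on replicate 1. Set against both control arrays, replicate 2 alone gave log2 differences of 4.05 for DREB1G, 2.10 for DREB1B, 1.08 for CBF3 and 0.88 for DREB1E. Replicate 1 alone gave 6.01, 4.82, 2.73 and 2.51 for the same genes. In a pool of 6 seedlings, a response of all plants and a stronger response of a few cannot be told apart.

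**Figure D3:**
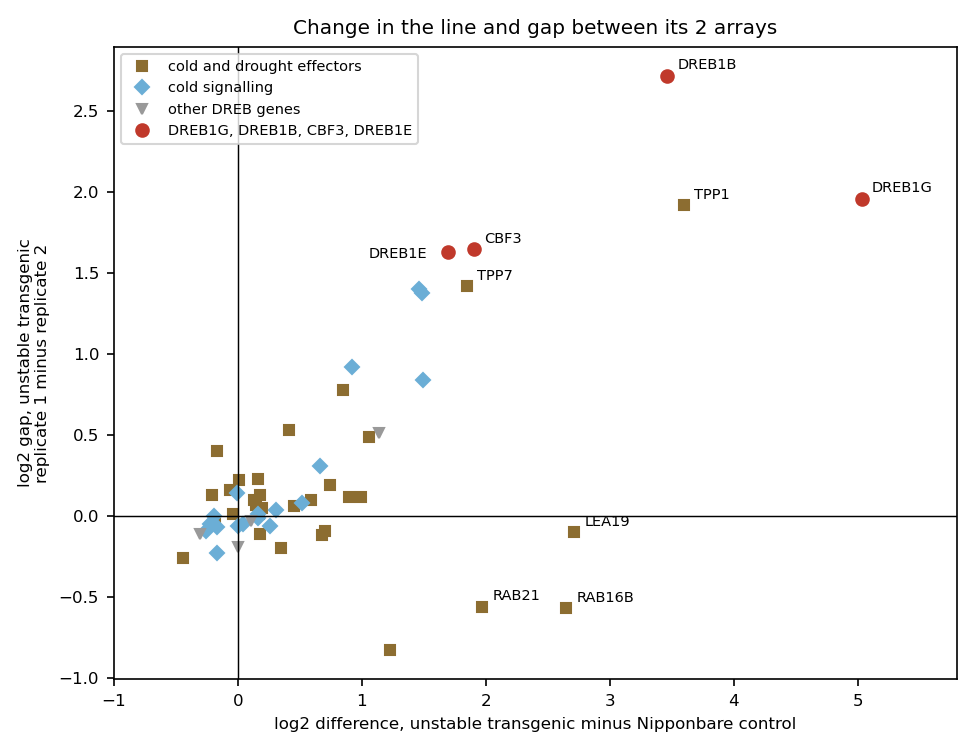
Log2 gap between the unstable transgenic arrays (vertical axis, replicate 1 minus replicate 2) against the log2 difference of the line from the Nipponbare control (horizontal axis), one point per gene. The 4 DREB1/CBF genes (red circles) lie at gaps of 1.63 to 2.72, above most cold signalling genes, cold and drought effectors and other DREB genes.

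The other transgenic line, which also germinated on hygromycin B, showed no call for these genes. In the stable transgenic line against the Bengal control, where 0.164% of probe sets were called, the log2 differences were 0.355 for DREB1G (95% interval -0.65 to 1.35), 0.07 for DREB1E (-0.72 to 0.86), -0.07 for DREB1B (-1.49 to 1.35) and -0.325 for CBF3 (-1.23 to 0.58). The difference between the 2 transgenic effects was tested itself. It was 4.675 log2 units for DREB1G (SE 0.646, limma adjusted p = 0.00555), in a contrast that called 1.95% of probe sets. It did not pass for DREB1B (3.53, SE 0.917, adjusted p = 0.0788), CBF3 (2.23, SE 0.587, adjusted p = 0.0825) or DREB1E (1.625, SE 0.512, adjusted p = 0.144). Without replicate 2 of the unstable transgenic line all 4 passed (adjusted p between 0.000119 and 0.00130 for the 3 others), while DREB1G lost its call with the 8 arrays of this contrast fitted alone (0.0574).

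Neither irradiated line showed a call for the 4 genes. In the unstable mutant against the Nipponbare control, a comparison that called 22.9% of all probe sets, DREB1G (0.005, 95% interval -0.99 to 1.00), DREB1E (-0.045, -0.84 to 0.75) and DREB1B (-0.31, -1.73 to 1.11) lay near 0 on the log2 scale. CBF3 was at -0.835 (SE 0.415, adjusted p = 0.185), with both mutant arrays below both control arrays, and was called lower with those 4 arrays fitted alone (adjusted p = 0.0365). In the stable mutant against the Estrela A control, where 0.131% of probe sets were called, DREB1B was at 0.865 (SE 0.649, adjusted p = 0.886) and CBF3 at 0.41 (SE 0.415, adjusted p = 0.923). Replicate 2 carried most of both differences, and without it they were 0.15 and 0.065. DREB1G (0.23) and DREB1E (0.195) did not pass either. The difference between the effects of the 2 mutant lines did not pass for any of the 4 genes, in a contrast that called 10.2% of probe sets. Log2 differences ran from -1.245 for CBF3 to -0.225 for DREB1G (smallest limma adjusted p = 0.218). The 2 lines differ in generation, selection and cultivar, which cannot be told apart in this contrast.

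Among unmodified seedlings CBF3 differed by cultivar. It averaged 8.33 ± 0.255 in the Nipponbare control and 5.91 ± 0.255 in the Bengal control (SD, n = 2 each), a 5.35-fold difference (log2 difference 2.42, SE 0.415, adjusted p = 0.00117). Against the Estrela A control, at 5.925 ± 0.007, it was 5.30-fold higher in Nipponbare (2.405, SE 0.415, adjusted p = 0.00119). These comparisons called 23.3% and 24.3% of all probe sets, 9.67% and 9.47% as higher in Nipponbare, so calls are common in them. Between the Estrela A and Bengal controls CBF3 was not called (0.015, 95% interval from the spread over all 7 groups -0.89 to 0.92, 9.5% of probe sets called). Its neighbour DREB1B stood at 6.20 ± 0.099 in Nipponbare and 6 ± 0.057 in Bengal, a difference of 0.20 (95% interval -1.22 to 1.62). The F-test over the 3 controls gave an adjusted p of 0.000994 for CBF3 and of 0.940 to 0.959 for the 3 other genes, with 29.6% of probe sets called.

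Root marker levels also differed between these groups. The mean level of 22 genes matched by name to root markers was 8.10 to 8.17 on the unstable transgenic arrays and 8.02 to 8.13 on the Nipponbare control arrays. It was 6.95 to 7.05 on the arrays of the other 5 groups, the unstable mutant included. The list holds LOC4330436, matched by its synonym PT2, which is also named GRF4 and may not be a root marker. The median log2 difference was 0.223 in Nipponbare against Bengal and 0.422 against Estrela A. Single genes reached 5.495 and 5.535, so the mean rests in part on a few large differences. Of these 22 genes, 9 were called higher and none lower in Nipponbare against Bengal, and 9 higher and 1 lower in Nipponbare against Estrela A. In either direction these are 40.9% and 45.5% of the list, beside 39.1% and 37.2% of all 17905 genes called in the same comparisons. By direction the list differed from all genes. Over all 17905 genes, 3016 were called higher and 3986 lower against Bengal, and 2642 higher and 4027 lower against Estrela A. The 8 shoot markers averaged 10.24 on both Nipponbare control arrays and 10.30 to 10.31 in the stable mutant. They averaged 10.18 to 10.20 in the Estrela A control and 9.83 to 9.91 in the Bengal control. Of the 8, 5 were called higher and none lower in Nipponbare against Bengal (62.5%, median log2 difference 0.352). Against Estrela A, 3 were called higher and 1 lower (50%, median 0.13). The part of the root and shoot markers in the CBF3 difference was not tested. In the unstable transgenic line against the Nipponbare control, 2 of the 22 root markers were called in each direction (median log2 difference 0.02). Of the 8 shoot markers 1 was called lower, and none of 15 grain remnant markers was called. The differences of these 15 ran from -0.46 to 3.75, with a median of -0.03. The largest was that of AMY1A, which read 10.51 and 9.51 in the line and 4.52 and 8 in the control. The AMY1A control arrays lay far apart, so the missing call does not show equal levels. The part of grain remnants in the differences of this line was not tested.

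The remaining DREB genes on the array included 1 that rose. Of DREB1C, DREB2A, DREB2B and DREB2D, DREB2A alone was called in the unstable transgenic line, where the median over the 4 was 0.055 and that over all probe sets was -0.04. DREB2A, a regulator of heat and drought responses, read 7.45 and 6.94 in the line and 5.87 and 6.24 in the Nipponbare control, a 2.20-fold rise (log2 difference 1.14, SE 0.165, adjusted p = 0.00222). It also rose in the unstable mutant, by 0.665 (adjusted p = 0.0123). DREB1C, named CBF1 in the gene table, read 6.62 and 6.73 in the line and 7.19 and 6.77 in the control and was not called (log2 difference -0.305, SE 0.153, adjusted p = 0.258). Its 2 other probe sets, with means of 3.94 and 3.69 in the line, gave -0.225 and -0.175. DREB1C was called lower in the unstable mutant, at 6.04 and 6.39 (log2 difference -0.765, SE 0.153, adjusted p = 0.00356). It was called higher in the Nipponbare control than in the Bengal control (0.475, adjusted p = 0.0432) and the Estrela A control (0.635, adjusted p = 0.00974), the same direction as CBF3. DREB2B (0.00) and DREB2D (0.11) were not called. Of 5 genes matched by name to the wider AP2/ERF factors none was called, with the largest differences at 0.445 for the panicle gene FZP (listed as ERF78) and 0.235 for AP25. AP25 was matched by its letters only and may be another kind of gene.

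Genes listed under cold signalling, whose place upstream of the DREB1 factors was not tested here, rose in part in the unstable transgenic line. Of 18 such genes 5 were called higher and none lower (27.8%, median log2 difference 0.16), beside 13.1% called in either direction and a median of 0.025 over all 17905 genes. The MAP kinase gene LOC4339633, listed as MAPK6 and MPK7, rose 2.81-fold (log2 difference 1.49, adjusted p = 0.00141), with 11.66 and 10.82 in the line and 9.77 and 9.73 in the control. MYB4, a MYB factor known from cold-treated rice, rose 2.80-fold, with 11.62 and 10.24 in the line and 9.45 and 9.44 in the control. The stress-activated kinase gene MAPK5 rose 2.76-fold, with 11.08 and 9.68 in the line and 8.98 and 8.85 in the control, and the calcium-dependent kinase gene CPK13 rose 1.58-fold. For all 5 called genes replicate 1 of the line exceeded replicate 2, with a median gap of 0.84.

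Clock genes gate DREB1 expression in Arabidopsis. None of 7 was called in the unstable transgenic line against the Nipponbare control, and the largest differences were -0.335 for GI (adjusted p = 0.0998) and -0.31 for PRR95 (adjusted p = 0.179). In the unstable mutant, where none of the 4 members was called, 1 clock gene was called higher and 4 lower, beside 38% of all genes called in either direction. The morning gene CCA1 (also LHY) read 10.24 and 10.23 in the unstable transgenic pools, 12.43 and 12.30 in the unstable mutant, and 10.06 and 10.04 in the Nipponbare control. It was lower in the unstable transgenic line than in the unstable mutant (log2 difference -2.13, SE 0.087, adjusted p = 3.05e-08). The part of this in the DREB1 differences between these 2 lines was not tested. Between controls, 1 of the 7 clock genes was called higher and 4 lower in Nipponbare against Bengal (71.4%, beside 39.1% of all genes). Against Estrela A, 2 were called lower and none higher (28.6%, beside 37.2% of all genes). The part of the clock genes in the CBF3 difference between cultivars was not tested.

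A list of 31 cold and drought effectors included dehydrins and other LEA proteins, which protect membranes and proteins in drying cells. It was matched by name and also held genes of trehalose and proline synthesis, BURP genes, NAC5 and NAC6. In the unstable transgenic line 10 of the 31 rose and none fell (32.3%, median 0.415). Over all 17905 genes, 13.1% were called in either direction and 1649 genes higher. In the unstable mutant, where none of the 4 members was called, 9 of the 31 were called higher and 4 lower (41.9%), beside 38% of all genes. TPP1 (LOC4330221), a trehalose-6-phosphate phosphatase gene, had the largest rise of the list in the unstable transgenic line. TPP1 read 12.41 and 10.49 in the line, 6.48 and 6.73 in the unstable mutant, and 7.87 and 7.84 in the Nipponbare control, and the 8 remaining arrays lay between 5.89 and 8.60. The line was thus the highest group, 12.1-fold above its control (log2 difference 3.595, SE 0.454, adjusted p = 0.000967).

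The 3 other genes with the largest rises, LEA19, RAB16B and RAB21, were ordered differently across the groups, with the Nipponbare control lowest. LEA19, an LEA protein gene whose probe set is marked as shared between transcripts, read 10.52 and 10.62 in the unstable transgenic pools, 12.31 and 12.31 in the unstable mutant, and 6.95 and 8.77 in the Nipponbare control. RAB16B, a dehydrin gene, read 7.76 and 8.33 in the line, 9.20 and 9.09 in the unstable mutant, and 4.83 and 5.97 in the control. RAB21, also a dehydrin gene, read 10.37 and 10.93 in the line, 12.46 and 12.56 in the unstable mutant, and 7.96 and 9.40 in the control. In the line, LEA19 rose 6.54-fold (adjusted p = 0.00454), RAB16B 6.25-fold (adjusted p = 0.00735) and RAB21 3.92-fold (adjusted p = 0.0172) against the control. In the unstable mutant, in which none of the 4 members was called, they rose as well, with log2 differences of 4.45, 3.745 and 3.83 for LEA19, RAB16B and RAB21 (adjusted p at most 0.000192). These 2 comparisons share the Nipponbare control arrays. Other genes of this kind did not share that order. The dehydrin gene Dhn1, picked after its values were seen, read 12.43 and 12.31 in the line, 11.00 and 11.03 in the unstable mutant, and 11.33 and 11.43 in the Nipponbare control. Unlike the 4 DREB1 genes and TPP1, none of LEA19, RAB16B and RAB21 read higher on replicate 1 of the line.

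**Figure D4:**
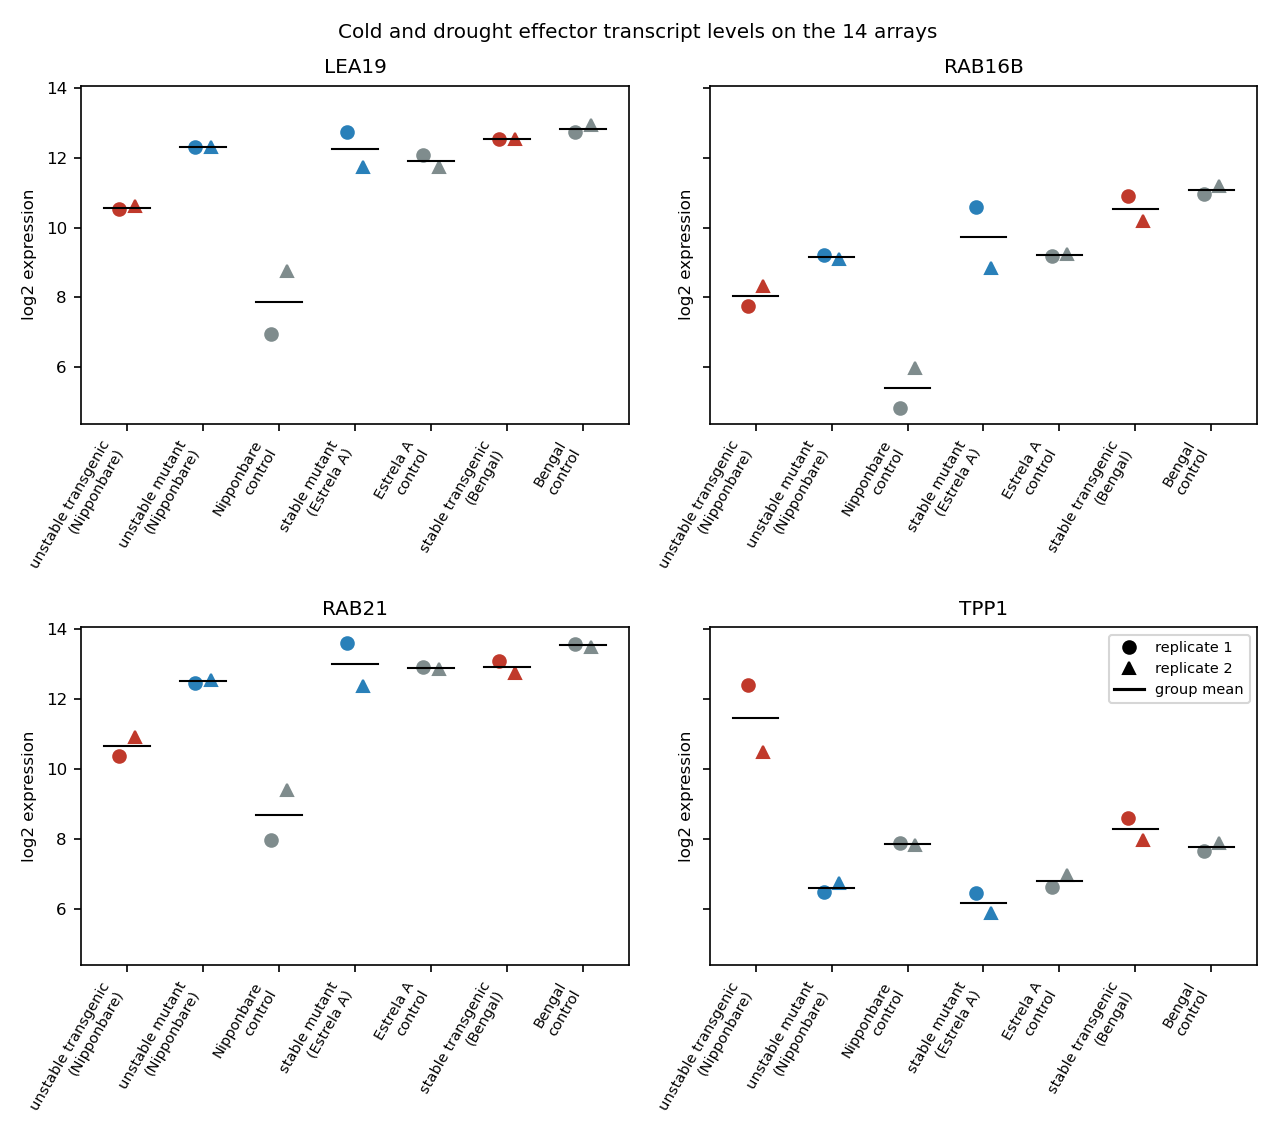
Log2 expression of LEA19, RAB16B, RAB21 and TPP1 (vertical axis) in the 7 groups (horizontal axis), with replicate 1 as a circle, replicate 2 as a triangle and the group mean as a bar. TPP1 is highest in the unstable transgenic line at 12.41 and 10.49, whereas LEA19, RAB16B and RAB21 are lowest in the Nipponbare control and read higher in the unstable mutant than in the line.

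The 4 genes varied together through the unstable transgenic arrays. Over the 14 arrays, Pearson's r was 0.951 between DREB1G and DREB1E, 0.939 between DREB1G and DREB1B, 0.96 between DREB1E and DREB1B, and 0.783 to 0.791 between CBF3 and the others. Over the 12 arrays outside that line the values were 0.284, 0.178 and 0.412 for the same 3 pairs and -0.305 to 0.126 for CBF3 with the others. The arrays share group, cultivar and replicate, so these are descriptions.

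The genes most like each member were taken as the 3 with the highest r over the 14 arrays. For DREB1G these were AOS (0.989) and JAZ13 (0.987), of jasmonate synthesis and signalling, and LIS (0.984). For DREB1E they were OsPP2C15 (0.971), a protein phosphatase 2C gene, FH16 (0.96), a formin gene, and CML10 (0.959), a calmodulin-like gene. Outside the line their r with the member was between -0.084 and 0.634, so the likeness rests on the 2 unstable transgenic arrays and a high level there is part of how these 6 genes were picked. JAZ13 read 11.77 and 9.35 in the line and 4.92 and 5.46 in the Nipponbare control.

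For DREB1B the 3 were CML15 (0.984), a calmodulin-like gene, OsTPP7 (0.963), a trehalose-6-phosphate phosphatase gene, and CIGR2 (0.952), a GRAS-family gene. Over the 12 arrays outside the line r was 0.857 for CML15, 0.579 for OsTPP7 and 0.632 for CIGR2. The line's arrays were part of how these 3 genes were picked too. CML15 read 7.08 and 7.99 in the stable mutant and 7.31 and 7.29 in the Estrela A control, so replicate 2 of the stable mutant was high for CML15 as it was for DREB1B.

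For CBF3 the 3 were NEK6 (0.972), a NIMA-related kinase gene, ABA8OX1 (0.964), which encodes an enzyme that breaks down abscisic acid, and AT7 (0.952). Their r over the 12 arrays outside the line stayed at 0.933, 0.916 and 0.924. ABA8OX1 read 11.05 and 10.31 in the unstable transgenic pools, 7.27 and 7.72 in the unstable mutant, 9.20 and 9.60 in the Nipponbare control, and 6.44 to 7.23 in the other 4 groups, the same order of the Nipponbare groups as CBF3. The log2 difference of the line from the control was 1.28 for ABA8OX1, 0.265 for NEK6 and 0.165 for AT7, given as a description since the selection used these arrays.

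DREB1B, DREB1H and CBF3 follow each other in the gene order of the reference table, and the first and last of these both rose. Of the 5 genes on either side of each member, leaving out other members, those with a probe set were read in the unstable transgenic line against the Nipponbare control. None of 4 was called around DREB1B (log2 differences -0.06 to 0.415), none of 3 around CBF3 (-0.045 to 0.255) and none of 4 around DREB1G (-0.28 to 0.335). LOC4347617 (0.25) and LOC4347621 (-0.045) are counted around both DREB1B and CBF3. Around DREB1E, 1 of 5 was called, LOC4336717 at 0.78 (adjusted p = 0.0406). These neighbours were looked at after the members' values were known.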

How the data were processed

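RNA from 14 pools of 6 seedlings was hybridised to Affymetrix Rice Genome arrays, 1 pool per array. The authors deposited log2 expression values per probe set, made with Robust Multichip Average (RMA) in Partek per the submitters' processing notes. RMA subtracts background, equalises the arrays' distributions and summarises probes, so values have no true zero and global shifts between arrays are removed. Array medians were 5.83 to 5.89. Precision is limited by 2 arrays per group. Nothing in the labels says how independent the pools were, so p-values measure the spread between them only.

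After leaving out 187 control probe sets of 57381, limma 3.58.1 in R 4.3.3 was fitted with 1 mean per group over all 14 arrays (lmFit, eBayes). P-values are two-sided and Benjamini-Hochberg adjusted over 57194 probe sets, and a call is an adjusted p under 0.05. The step was tested on simulated data. The platform annotation, updated through the reference gene table, gave 1 gene for 22436 probe sets, several for 95 and none for 34663. For each gene the probe set with the highest mean was used.

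The members and gene lists were chosen with earlier results of these data known. Besides the 4 members and the other DREB genes, the text names up to 4 called genes per list with the largest difference in the unstable transgenic line (the 2 largest where none was called). It also names the 3 genes most correlated with each member, among named genes ranging over at least 1 log2 unit. Neighbouring genes are named outside this rule. Replicate 1 is the array whose title carries a number. Alternatives were the variance prior, the arrays fitted, dim or shared probe sets, cyclic loess, a minimum fold of 1.2, the replicate number as a block, and leaving out single arrays. No sequence was used.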

Additional observations from a re-analysis of the deposited data

Results flagged for a closer look

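The effect of the transgenic line differed between cultivars for DREB1G by a test of the difference itself. The unstable transgenic line differed from the Nipponbare control by 5.03 log2 units and the stable transgenic line from the Bengal control by 0.355, a difference of 4.675 (SE 0.646, limma adjusted p = 0.00555). The 2 lines carry different transgenes, so cultivar, transgene and line cannot be told apart in it.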

How the results depend on the processing

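Of 128 recomputed counts of members called, 120 stayed within 1.5 times the reported count, and of 512 recomputed differences 481 kept their direction and side of the threshold. In the unstable transgenic line against the Nipponbare control, where 4 were called, the count was 1 without variance moderation, 2 against a fold of 1.2 and 0 with the arrays of the comparison alone. With each array left out it ranged between 2 and 4. The count of 0 in the unstable mutant against the Nipponbare control became 1 with its own arrays alone (CBF3). The count of 1 for the difference between the transgenic effects became 0 without moderation and 0 with its own arrays alone, and ranged between 1 and 4 with an array left out. The cause was not tested. Counts of all calls moved too: 4425 in the unstable transgenic line against its control became 2318 without moderation and 1034 against a fold of 1.2. Against a fold of 1.2, counts became 5612 (of 13085) in the unstable mutant and 46 (of 94) in the stable transgenic line against their controls, 48 (of 75) in the stable mutant, and 9005 (of 16789) between the unstable lines. They became 6123 (of 13344), 6386 (of 13876) and 2325 (of 5433) between cultivars, 307 (of 1116) for the transgenic difference and 2357 (of 5826) for the mutant one. Without moderation the stable transgenic line had 24 and the transgenic difference 199, and with a trended robust prior the stable transgenic line had 152.

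The 13 differences that changed sign were uncalled and small. With 1 array left out at a time, they ranged as follows. In the unstable mutant against its control, DREB1E lay between -0.23 and 0.14 (0.005 without Nipponbare control replicate 2) and DREB1G between -0.325 and 0.335 (-0.13 without unstable mutant replicate 2). In the stable transgenic line against its control DREB1B lay between -0.23 and 0.09. In Nipponbare against Bengal, DREB1G lay between -0.43 and 0.23, and DREB1E was -0.04 and -0.025 without replicate 2 of either control. DREB1G lay between -0.26 and 0.4 in Nipponbare against Estrela A. In Estrela A against Bengal, DREB1B lay between -0.12 and 0.02 and CBF3 between -0.165 and 0.195 (-0.026 under cyclic loess). For the difference between the mutant effects DREB1G lay between -0.555 and 0.105.

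The replicate numbers do not pair the arrays by any label, and deviations of same-numbered arrays correlated between -0.117 and 0.112. With the number as a replicate block the members called stayed at 4 in the unstable transgenic line against its control and against the unstable mutant, while all calls in the first went to 3935. The members' other probe sets gave no value, since each has 1. Signal over background was not used here.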
